A study of Mus musculus with 15 samples.

Results

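Hepcidin and the genes through which the liver senses, takes up, stores and releases iron were followed in mouse liver tumours with and without hepatocyte Hmgb1, and in normal liver. The 10 genes are Hamp, Hamp2, Hfe, Hfe2, Bmp6, Tfrc, Tfr2, Slc40a1, Fth1 and Ftl1. They were picked by name as iron handling genes, and all 10 were found among the 23284 gene rows of the deposited count table. Tfr2 stands there under its older symbol Trfr2. The 15 libraries are poly-A selected RNA sequencing of bulk tissue and fall into 3 groups.

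The first group is 6 hepatocellular carcinomas from floxed control mice (Hgmb1fl/fl, spelled as in the labels), called floxed tumours here. The second is 6 hepatocellular carcinomas from Hgmb1Dhep mice, which carry the same floxed alleles and an Albumin-Cre transgene that removes HMGB1, a chromatin protein also released by injured cells, from the liver; they are called Hmgb1-deleted tumours. Albumin-Cre acts in cells of the hepatocyte lineage, so other cells of the tumour still carry the gene. Both tumour groups were given the carcinogen diethylnitrosamine (DEN) on postnatal day 15, at 25 mg/kg. From week 8 they were given CCl4 (carbon tetrachloride), a liver toxin, at 0.5 ul/g every week for 15 weeks. The third group is 3 normal livers from C57Bl/6 control mice, for which the labels name no treatment. Age at collection is not given in the sources used here, and neither is the strain of the tumour mice. Every comparison with normal liver therefore combines tumour, treatment and floxed allele, and age and strain may differ as well. For deleted tumours it also combines the Albumin-Cre transgene and the loss of Hmgb1. The comparison of the tumour groups likewise combines the transgene with the loss of Hmgb1. In each comparison these cannot be told apart. The labels do not say whether libraries of a group came from separate mice. Each p-value here therefore rests on the spread among libraries, which may not be the spread among mice.

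Hepcidin is a peptide hormone that hepatocytes secrete. It binds ferroportin, the only known cellular iron exporter, encoded by Slc40a1, and causes it to be degraded, so that less iron enters the blood from the gut, from macrophages and from liver. The hepatocyte raises hepcidin transcription when iron is plentiful, chiefly through BMP6, a ligand made by sinusoidal endothelial cells, and its co-receptor hemojuvelin (Hfe2), which act through SMAD proteins. HFE and transferrin receptor 2 report the iron load of blood transferrin to the same pathway, and IL-6 raises hepcidin during inflammation through STAT3. Tfrc, Slc40a1, Fth1 and Ftl1 are in addition controlled after transcription, by iron regulatory proteins that bind short RNA hairpins called iron-responsive elements. Binding in a 3′ untranslated region (UTR) stabilises Tfrc mRNA when iron is scarce, and binding in a 5′ UTR blocks translation of ferroportin and ferritin. Transcript levels of the ferritin genes and of Slc40a1 therefore do not report their protein levels.

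Mouse hepcidin has a close copy, Hamp2, and the promoters of both are shown because the copies were the members with the widest range of values. Each sequence is the 250 bases before the start site, minus strand, from RefSeq on GRCm38.p6, at chr7:30944030-30944279 for Hamp and chr7:30924182-30924431 for Hamp2. The capitals mark, first, GGCGCC, the core of the BMP-responsive element known from the hepcidin promoter, or the bases of Hamp2 aligned to it, and second, a match to the STAT motif TTCNNNGAA.
Hamp: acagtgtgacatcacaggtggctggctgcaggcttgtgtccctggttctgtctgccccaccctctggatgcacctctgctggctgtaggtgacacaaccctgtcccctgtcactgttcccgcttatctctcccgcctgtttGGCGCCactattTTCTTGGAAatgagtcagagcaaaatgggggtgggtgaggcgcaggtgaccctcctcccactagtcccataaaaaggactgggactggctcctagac
Hamp2: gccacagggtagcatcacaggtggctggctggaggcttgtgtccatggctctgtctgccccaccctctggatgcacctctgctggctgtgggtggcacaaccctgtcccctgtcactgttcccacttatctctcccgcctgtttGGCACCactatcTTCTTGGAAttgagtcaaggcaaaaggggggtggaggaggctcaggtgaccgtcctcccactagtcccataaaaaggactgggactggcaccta

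Of 247 aligned bases, 227 were identical (91.9%). Of the 20 substitutions, 1 fell within GGCGCC, G145A, with the Hamp base first and the position counted from 1 at the 5′ end of the printed Hamp sequence. None fell in the STAT motif. Both motifs were searched on both strands. GGCGCC was present in 9.59% and TTCNNNGAA in 7.02% of the 32851 RefSeq promoter windows. Among the members with a window, TTCNNNGAA was found in Hamp and Hamp2, and GGCGCC in Hamp and in 1 of 2 windows of Tfrc. Hfe2 and Slc40a1 were not matched in the promoter table. These are matches of letters, not measured binding sites.

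The iron-responsive elements of 4 members are shown because they separate the genes by where the hairpin lies. They were found in the longest protein-coding GENCODE transcript of each gene on GRCm38 as a bulged C, 5 bases, a CAGTGN loop whose last base is not G, and 5 bases that pair with the first 5. The capitals mark the bulged C and the loop. Under this criterion 4 were found in the 3′ UTR of Tfrc and 1 each in the 5′ UTR of the other genes. Elements of another form would be missed.
Tfrc element 1: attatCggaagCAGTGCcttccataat
Tfrc element 2: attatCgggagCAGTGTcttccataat
Tfrc element 3: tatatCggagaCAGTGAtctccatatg
Tfrc element 4: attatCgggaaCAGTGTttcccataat
Slc40a1: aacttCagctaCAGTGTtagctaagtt
Fth1: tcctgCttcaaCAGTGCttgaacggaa
Ftl1: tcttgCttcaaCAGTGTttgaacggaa

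The same criterion was met in the 5′ UTR of 17 of 21875 protein-coding genes (0.0777%) and in the 3′ UTR of 91 (0.416%). The elements of Fth1 and Ftl1 carry the same 5 bases before the loop. No match was found in the UTRs of Hamp, Hamp2, Hfe, Hfe2, Bmp6 or Tfr2 under this criterion.

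Levels are counts per 1000000 counts (CPM), scaled with edgeR's TMM factors, which correct for differences in library composition. Totals ran from 18973246 to 30929442 counts per library, and 3 counts, the lowest level read as detected, came to 0.111 to 0.168 CPM. Differences are log2 fold changes ± SE from edgeR's quasi-likelihood test over all genes that passed a filter on low counts, with Benjamini-Hochberg adjusted p-values, and a gene was called at an adjusted p under 0.05. All 10 members passed the filter in each comparison, and each comparison was fitted on its own groups. Hmgb1 itself was 27.8 ± 3.23 CPM (SD, n = 6) in floxed tumours, 14.8 ± 2.64 (n = 6) in Hmgb1-deleted tumours and 24.0 ± 6.19 (n = 3) in normal liver. The tumour groups did not overlap, and the level in deleted tumours was 53.3% of that in floxed tumours (two-sided p = 0.00216 by exact permutation, which is the smallest possible). On the first principal component over all genes (48.1% of the variance) the normal livers stood at 81.7 to 82.7 and the floxed tumours at -51.2 to -30.9. Hmgb1-deleted tumours 3, 4 and 6 (8.03 to 25.1) stood nearer to normal liver than Hmgb1-deleted 1, 2 and 5 (-21.1 to -19.8), and the second component (16.6%) separated Hmgb1-deleted 2 and 5, with values of -58.5 and -64.1. Results for the deleted group are therefore given without these libraries as well where the call changes. Of the 9 hepatocyte markers, including Alb and Apoa1, none was at 0 in all libraries. Ddx3y, a Y-linked gene, was at 55.9 to 99.1 CPM in every library.

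The comparison of the tumour groups addresses whether tumours with Albumin-Cre and deleted Hmgb1 differ from floxed tumours in these genes. In it Hamp rose and Tfrc fell in Hmgb1-deleted tumours, and the other 8 members did not pass the test. This is 2 of 10 against 7.78% of the 13433 genes tested (4.45% higher and 3.33% lower). Compared with normal liver, floxed tumours had lower Hamp, Hamp2, Hfe, Tfr2 and Slc40a1 and higher Tfrc, or 6 of 10 against 48.7% of 13784 genes (24.9% higher and 23.8% lower). Hmgb1-deleted tumours had lower Hamp2, Hfe and Tfr2 than normal liver, or 3 of 10 against 34.7% (18.1% higher and 16.6% lower). The median log2 fold change of the members was 0.44, -0.43 and 0.16 in these comparisons, against 0.02, 0.06 and 0.05 over all genes tested. Both comparisons with normal liver share the same 3 livers. In neither of them is the members' share far from that of all genes. No member separated the tumour groups without overlap, against 5.01% of all genes. Floxed tumours and normal liver did not overlap for 5 members (Hamp, Hfe, Tfrc, Tfr2 and Slc40a1), against 46.1% of all genes, and deleted tumours and normal liver for 2 (Hfe and Tfr2), against 37.6%.

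**Figure D1:**
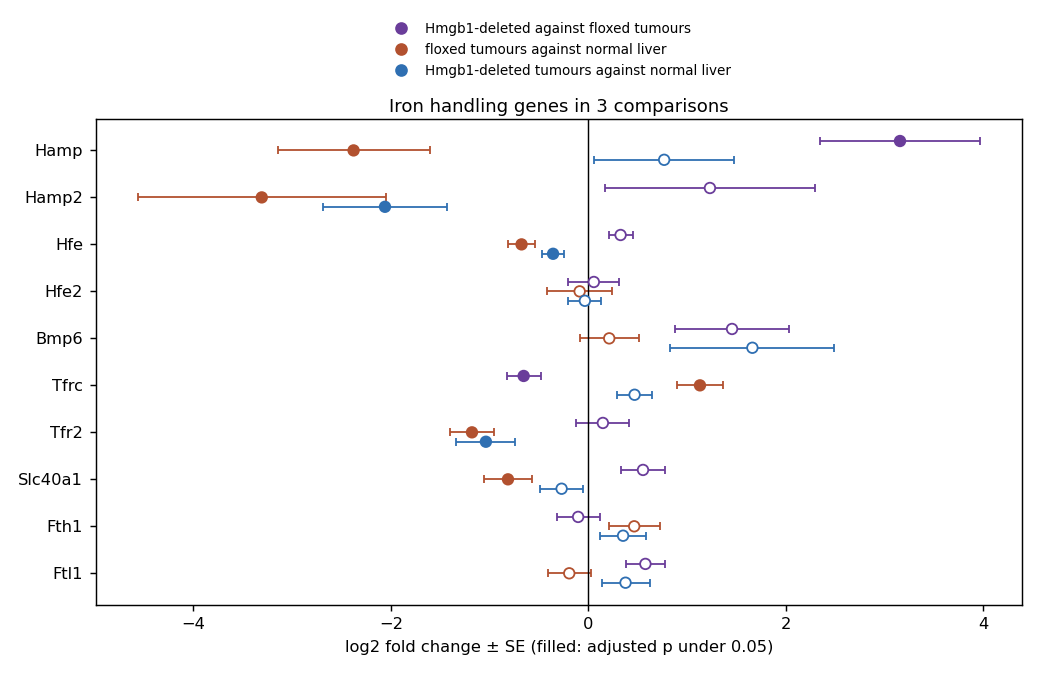
Log2 fold change of each of the 10 genes in the 3 comparisons, with bars of 1 SE from edgeR; the vertical line marks no difference and filled points are those called. Among these genes Hamp has the largest difference between the tumour groups (3.16), and Tfr2 lies below normal liver by a similar amount in both tumour groups (-1.18 and -1.04).

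Hamp, the gene for hepcidin, was low in floxed tumours. Its level was 19.3, 80.9, 145, 132, 38.9 and 4.48 CPM in floxed tumours 1 to 6. The deleted tumours, in the same order, had 67.7, 818, 498, 1240, 827 and 268 CPM, and the normal livers 269, 419 and 418 CPM. Every floxed tumour was below every normal liver. Of the deleted tumours, 5 were above every floxed tumour, while Hmgb1-deleted tumour 1 lay inside their range. Mean levels were 70.2 ± 59.2 CPM (SD, n = 6) in floxed tumours, 620 ± 427 (n = 6) in deleted tumours and 369 ± 86.4 (n = 3) in normal liver. The mean in floxed tumours was 19.1% of that in normal liver, and the mean in deleted tumours was 8.83-fold that in floxed tumours.

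Between the tumour groups the log2 fold change of Hamp was 3.16 ± 0.81 (adjusted p = 0.0329, edgeR). The call was lost without floxed tumour 1, 2 or 5, or without deleted tumour 2, 3, 4 or 5, with adjusted p between 0.0505 and 0.0743. It was also lost with limma's voom (2.64, adjusted p = 0.0627), and the log2 fold change over all 23 alternatives ran from 2.64 to 3.51. Without Hmgb1-deleted 2 and 5 it was 2.88 (adjusted p = 0.0725), and without Hmgb1-deleted 3, 4 and 6 it was 2.98 (adjusted p = 0.0892). Floxed tumours were lower than normal liver by a log2 fold change of -2.38 ± 0.77 (adjusted p = 0.0267, edgeR), a call lost without floxed tumour 5 (adjusted p = 0.0542) or normal liver 2 or 3 (0.0734 and 0.0659), and without the filter on low counts (-2.40, adjusted p = 0.0546). Deleted tumours and normal liver differed by 0.77 ± 0.71 (adjusted p = 0.41, edgeR), and their ranges overlapped. In bulk tissue, fewer hepatocytes and less hepcidin RNA per hepatocyte cannot be told apart. The summed level of 9 hepatocyte markers was 108000 to 285000 CPM in floxed tumours, 74300 to 177000 in deleted tumours and 123000 to 151000 in normal liver. Alb made up most of that sum (173000 ± 60400 CPM in floxed tumours, SD, n = 6). Of the 9 markers, Apoa1 rose and Cps1, Cyp2e1, Tat and Pck1 fell in floxed tumours against normal liver, with log2 fold changes of 1.63 ± 0.36, -3.06 ± 0.25, -4.03 ± 0.51, -1.84 ± 0.41 and -2.18 ± 0.56 (adjusted p at most 0.009, edgeR). Cps1 and Tat fell in deleted tumours, and none was called between the tumour groups, where Cyp2e1 differed by 2.29 ± 0.67 (adjusted p = 0.054, edgeR). Their part in the Hamp level was not tested.

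**Figure D2:**
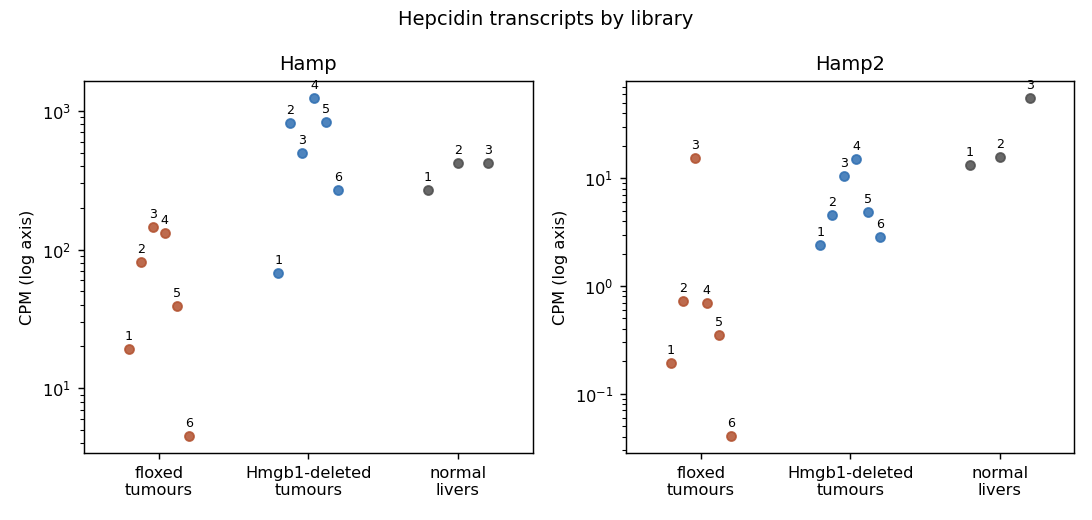
Hamp and Hamp2 in CPM on a log axis, one numbered point per library, for 6 floxed tumours, 6 Hmgb1-deleted tumours and 3 normal livers. Floxed tumours span 4.48 to 145 CPM of Hamp and deleted tumours 67.7 to 1240, and Hamp2 is below 1 CPM in every floxed tumour but number 3.

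Hamp2 was lower in both tumour groups than in normal liver. It stood at 13.2, 15.8 and 55.6 CPM in the normal livers. Floxed tumours ranged from 0.04 CPM, a single count, through a median of 0.524 to 15.3 CPM, and deleted tumours from 2.41 through 4.71 to 15.2 CPM. Floxed tumour 3 alone of its group was inside the range of normal liver; the other 5 were at or below 0.728 CPM and below every deleted tumour. Mean levels were 2.89 ± 6.1, 6.72 ± 5.05 and 28.2 ± 23.8 CPM (SD, n = 6, 6 and 3) in floxed tumours, deleted tumours and normal liver. Against normal liver the log2 fold change was -3.31 ± 1.26 in floxed tumours (adjusted p = 0.04998) and -2.06 ± 0.63 in deleted tumours (adjusted p = 0.0318, both edgeR). The first call sits at the threshold: it was kept in 4 of 18 alternatives, and lost when any library of the comparison other than floxed tumour 3 was left out. The second was lost without deleted tumour 1, 2, 5 or 6 or normal liver 2 or 3, without Hmgb1-deleted 2 and 5 (-1.85, adjusted p = 0.0888), and when all 15 libraries were fitted together (adjusted p = 0.161). Deleted against floxed tumours gave a log2 fold change of 1.23 ± 1.07 (adjusted p = 0.519, edgeR), and without floxed tumour 3 it was 4.09 (adjusted p = 0.013).

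The counts assigned to Hamp2 as a share of all hepcidin counts differed between libraries. In floxed tumours other than number 3 the share was 0.523% to 0.993%, and in floxed tumour 3 it was 9.54% (95% exact binomial interval 8.51 to 10.6, counting error only). Deleted tumours lay between 0.557% and 3.44%, and the normal livers at 4.69%, 3.63% and 11.7%. Since the copies are close, reads may have been split between them or dropped in the authors' counting, and the sum is the safer quantity. Summed hepcidin was 73.1 ± 63.4 CPM in floxed tumours, 626 ± 430 in deleted tumours and 397 ± 101 in normal liver (SD, n = 6, 6 and 3). The difference of mean log2(CPM + 1) between deleted and floxed tumours was 3.33 (exact permutation test, two-sided, p = 0.0108, adjusted over 3 comparisons 0.0325). Floxed tumours were at -3.11 relative to normal liver (exact permutation p = 0.0357, adjusted 0.0536), which does not pass, and deleted tumours at 0.22 (exact permutation p = 0.821). The smallest p possible was 0.00216 for the first comparison and 0.0119 for the others. The first result did not pass without Hmgb1-deleted 2 and 5 (2.89, exact permutation p = 0.0476, adjusted 0.0714), nor without Hmgb1-deleted 3, 4 and 6 (3.03, adjusted p = 0.125, exact permutation). It also missed the threshold (highest adjusted p = 0.0536, exact permutation) without floxed tumour 1, 5 or 6 or deleted tumour 2, 3, 4, 5 or 6.

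Bmp6 encodes the ligand that couples hepatic iron to hepcidin. Its level was 3.2, 3.77 and 2.78 CPM in the normal livers and 2.59 to 5.87 CPM (median 3.58) in floxed tumours. In deleted tumours 1 to 6 it was 5.67, 19.9, 3.02, 3.28, 26.3 and 2.68 CPM. Hmgb1-deleted 2 and 5 were high, and the other 4 lay within the range of floxed tumours. Between the tumour groups it differed by a log2 fold change of 1.46 ± 0.57 (adjusted p = 0.138, edgeR); it was -0.03 without Hmgb1-deleted 2 and 5, and 2.17 (adjusted p = 0.0179) without Hmgb1-deleted 3, 4 and 6. Against normal liver it was 1.66 ± 0.83 (adjusted p = 0.141, edgeR), and 2.43 (adjusted p = 0.00957) without Hmgb1-deleted 3, 4 and 6. That subset was chosen after the data were seen, and it keeps both libraries high in Bmp6. The adjusted p-values of 0.0179 and 0.00957 therefore cannot serve as tests of Bmp6. Hmgb1-deleted 2 and 5 were also high in Steap2, a metalloreductase gene (96.6 and 130 CPM, against 1.73 to 8.78 in the other tumours), and in the macrophage gene Csf1r (99.0 and 159 CPM). Steap2 and Csf1r were chosen after their values were seen. The macrophage list was split in these 2 libraries. Lyz2 went with Csf1r (6807 and 6926 counts, against 1497 to 3894 in the other deleted tumours). Clec4f, Vsig4, Cd5l and Timd4 went the other way, with their lowest counts among deleted tumours (Clec4f 555 and 658, against 1573 to 3666). The part of other cell types in the Bmp6 level was not tested. The summed level of 9 sinusoidal endothelial markers was 294 to 576 CPM in floxed tumours, 198 to 395 in deleted tumours and 223 to 361 in normal liver, and none of these markers was at 0 in all libraries. Of them Stab1, a scavenger receptor, fell in deleted tumours (-0.60 ± 0.13, adjusted p = 0.0152, edgeR), and the other 8 did not pass. This list was split too in Hmgb1-deleted 2 and 5. Stab2, Clec4g and Oit3 had their lowest counts among deleted tumours there (Stab2 406 and 376, against 933 to 1319). The rest of the list did not share this, and Pecam1 was not low (715 and 1081, against 427 to 912). Hmgb1-deleted 4, with 3.28 CPM of Bmp6, had the highest Hamp level, 1240 CPM. The part of Bmp6 in the Hamp level was not tested.

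Hfe encodes an MHC class I-like protein that is mutated in hereditary haemochromatosis. Floxed tumours ranged from 29.6 through a median of 34.2 to 42.7 CPM, deleted tumours from 36.8 through 44.1 to 51.6 CPM, and normal livers stood at 58.5, 56.0 and 57.4 CPM. All tumours of both groups were below all normal livers. Against normal liver the log2 fold change was -0.68 ± 0.14 in floxed tumours (adjusted p = 0.00266) and -0.36 ± 0.11 in deleted tumours (adjusted p = 0.0308, both edgeR). The floxed call was kept in all 18 alternatives. The deleted call was lost without deleted tumour 3 or 6, without any 1 of the normal livers, on library totals without a composition factor (-0.09, adjusted p = 0.679) and with upper-quartile factors (-0.20, adjusted p = 0.158). It was lost too without Hmgb1-deleted 2 and 5 (-0.30, adjusted p = 0.0633), but not without 3, 4 and 6. Hfe differed between the tumour groups by 0.33 ± 0.12 (adjusted p = 0.119, edgeR).

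Hfe2, the BMP co-receptor hemojuvelin, showed no called difference. Its means were 110 ± 46.5 CPM in floxed tumours, 114 ± 18.6 in deleted tumours and 118 ± 17.3 in normal liver (SD, n = 6, 6 and 3). Floxed tumours spanned 48.3 to 186 CPM, which held every value of the other groups. Log2 fold changes were 0.06 ± 0.26 between the tumour groups, -0.09 ± 0.33 for floxed tumours and -0.03 ± 0.17 for deleted tumours against normal liver (adjusted p = 0.926, 0.844 and 0.883, edgeR).

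Tfr2, the second transferrin receptor, which acts as an iron sensor in hepatocytes, was lower in both tumour groups than in normal liver and overlapped between them. It stood at 610, 565 and 534 CPM in the normal livers. Floxed tumours ranged from 146 through a median of 257 to 324 CPM, and deleted tumours from 133 through 290 to 362 CPM, so every tumour was below every normal liver. Means were 43.8% and 48.2% of normal liver, with log2 fold changes of -1.18 ± 0.22 (adjusted p = 0.00178) and -1.04 ± 0.30 (adjusted p = 0.0251, both edgeR). The floxed call was kept in all 18 alternatives. The deleted call was kept in 17 of 20 and lost without normal liver 1, 2 or 3 (adjusted p = 0.0618 to 0.0942). Deleted against floxed tumours gave 0.15 ± 0.27 (adjusted p = 0.788, edgeR). Hmgb1-deleted 2 to 5, whose Hamp levels exceeded those of every normal liver, were among the tumours low in Tfr2. The part of Tfr2 in the Hamp level was not tested.

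**Figure D3:**
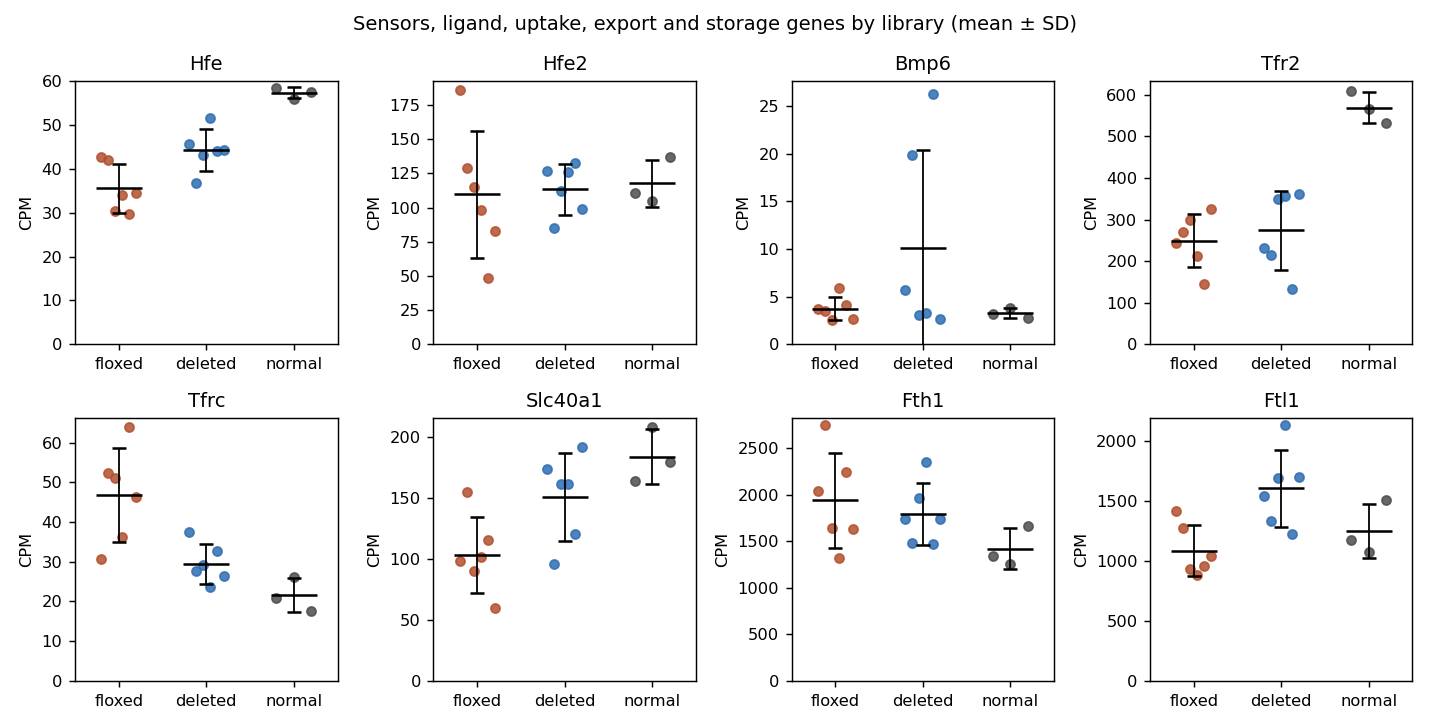
Levels in CPM of the 8 members other than Hamp and Hamp2, one point per library with the group mean and SD (n = 6, 6 and 3). The lower end of the Bmp6 SD bar in deleted tumours falls below 0 and is not drawn. Tfr2 and Hfe are lower in every tumour than in every normal liver, and Bmp6 is high in Hmgb1-deleted 2 and 5 (19.9 and 26.3 CPM).

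Tfrc encodes transferrin receptor 1, which brings transferrin-bound iron into cells and is abundant on dividing cells. It was highest in floxed tumours. The level was 30.8 to 63.9 CPM (median 48.7) in floxed tumours, 23.5 to 37.6 CPM (median 28.4) in deleted tumours, and 20.9, 26.2 and 17.7 CPM in normal liver. Every floxed tumour was above every normal liver, and the tumour groups overlapped through floxed tumour 1 (30.8 CPM) and deleted tumour 1 (37.6 CPM). The log2 fold change was 1.13 ± 0.24 for floxed tumours against normal liver (adjusted p = 0.00298, edgeR), called in all 18 alternatives. For deleted against floxed tumours it was -0.65 ± 0.17 (adjusted p = 0.0355, edgeR), and the mean in deleted tumours was 63.1% of that in floxed tumours. That call was lost on library totals (-0.47, adjusted p = 0.244), without floxed tumour 2, 3, 5 or 6, without deleted tumour 2, 3, 4 or 6, and without Hmgb1-deleted 2 and 5 (adjusted p = 0.0714) or 3, 4 and 6 (-0.56, adjusted p = 0.172). Deleted tumours against normal liver gave 0.47 ± 0.17 (adjusted p = 0.0606, edgeR), and 0.62 (adjusted p = 0.0289) without Hmgb1-deleted 3, 4 and 6. Of 10 proliferation genes, 9 were higher in floxed tumours than in normal liver and 7 in deleted tumours. Of all genes, 24.9% and 18.1% were higher. None of the 10 was called between the tumour groups. The proliferation genes summed to 70.0 to 181 CPM in floxed tumours, 60.1 to 272 in deleted tumours and 34.3 to 39.4 in normal liver, and their part in the Tfrc level was not tested.

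Slc40a1, which encodes the exporter ferroportin, fell in floxed tumours. Floxed tumours ranged from 60.2 through a median of 99.9 to 155 CPM, deleted tumours from 95.6 through 161 to 192 CPM, and normal livers stood at 164, 208 and 180 CPM. Every floxed tumour was below every normal liver, whereas deleted tumours overlapped both other groups. Floxed tumours against normal liver gave a log2 fold change of -0.81 ± 0.24 (adjusted p = 0.0181, edgeR), and the call was lost without normal liver 2 (adjusted p = 0.0768), with upper-quartile factors (0.0563) and on library totals (0.0638). Deleted tumours gave 0.55 ± 0.22 against floxed tumours (adjusted p = 0.145) and -0.27 ± 0.22 against normal liver (adjusted p = 0.343, both edgeR). Ferroportin is also made by liver macrophages. The summed level of 9 Kupffer cell and macrophage markers was 225 to 659 CPM in floxed tumours, 361 to 527 in deleted tumours and 268 to 364 in normal liver, with no marker at 0 in all libraries. The list was split. In floxed tumours against normal liver Cd68 and Lyz2 rose (1.76 ± 0.45 and 1.39 ± 0.30, adjusted p = 0.00859 and 0.00339, edgeR). The other 7 did not pass, and the nearest, Clec4f and Marco, ran lower (-0.85 ± 0.34 and -1.98 ± 0.79, both adjusted p = 0.0608, edgeR). Clec4f averaged 46.8, 76.4 and 85.1 CPM in floxed tumours, deleted tumours and normal liver. The part of these markers in the Slc40a1 level was not tested.

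Fth1 and Ftl1 encode the heavy and light chains of ferritin, the iron storage shell, and neither was called in any comparison by edgeR with TMM factors. Fth1 averaged 1940 ± 514 CPM in floxed tumours, 1790 ± 330 in deleted tumours and 1420 ± 219 in normal liver (SD, n = 6, 6 and 3). Its log2 fold change was -0.10 ± 0.22 between the tumour groups, 0.47 ± 0.26 for floxed tumours and 0.35 ± 0.23 for deleted tumours against normal liver (adjusted p = 0.825, 0.159 and 0.255, edgeR). Ftl1 ranged from 879 through a median of 999 to 1410 CPM in floxed tumours and from 1220 through 1620 to 2130 CPM in deleted tumours, and stood at 1171, 1073 and 1504 CPM in normal liver. For Ftl1, 4 of the 6 deleted tumours were above every floxed tumour. Ftl1 differed between the tumour groups by a log2 fold change of 0.58 ± 0.20 (adjusted p = 0.0942, edgeR), and it was called with DESeq2 (0.55, adjusted p = 0.0181), with limma's voom (0.64, adjusted p = 0.0382) and on library totals (0.73, adjusted p = 0.0188). Ferritin genes have many processed pseudogenes, to which reads can also map, so their levels are uncertain to that extent.

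Genes that act in the hepcidin pathway beside the members were taken as lists and described by counts. Between the tumour groups 7.78% of all genes tested were called. Of 16 BMP ligands, receptors and modulators none was called between the tumour groups (median log2 fold change 0.13). Bmp7, another ligand of the family, and Neo1, the hemojuvelin-binding receptor neogenin, had the smallest p-values, with -1.19 ± 0.55 (adjusted p = 0.2004) and 0.39 ± 0.13 (adjusted p = 0.0829, edgeR). Against normal liver 2 rose and 7 fell in floxed tumours (median -0.39) and 8 fell in deleted tumours (median -0.44). Over all genes 48.7% and 34.7% were called in these comparisons. A list count near those shares is no result about the list. The 2 that rose in floxed tumours were the ligand genes Bmp7 (3.23 ± 0.43, adjusted p = 0.000203) and Bmp4 (1.51 ± 0.35, adjusted p = 0.00518, both edgeR). Neither was called in deleted tumours against normal liver. Neo1 fell in both tumour groups, from 32.3 ± 5.63 CPM (SD, n = 3) to 11.2 ± 1.94 in floxed and 14.5 ± 1.25 CPM in deleted tumours (n = 6 each). Tmprss6, the protease that cleaves hemojuvelin and holds hepcidin down, fell from 661 ± 52.8 CPM in normal liver to 279 ± 59.5 in floxed and 277 ± 66.6 in deleted tumours. Its log2 fold changes were -1.23 ± 0.19 and -1.24 ± 0.22 (adjusted p = 0.000577 and 0.00394, edgeR). Its protein was not measured, and its part in the Hamp level was not tested.

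Of 9 genes known to answer BMP-SMAD signalling, Smad9 rose in deleted against floxed tumours and the other 8 did not pass (median 0.37). Smad9 encodes SMAD8. The RefSeq promoter windows of Smad9, Id2 and Id4 hold GGCGCC, and Id2 and Id4 were not called (0.13 ± 0.28 and -0.31 ± 0.42, adjusted p = 0.834 and 0.701, edgeR). Id1, Smad7 and Bambi were not matched to a promoter window, so they were not searched. Smad9 was 0 to 1.96 CPM (median 1.1) in floxed tumours, 1.96 to 15.3 CPM (median 8.88) in deleted tumours, and 9.47, 23.4 and 16.7 CPM in normal liver. The tumour groups did not overlap, though Hmgb1-deleted 1 and floxed tumour 4 were equal at this rounding; across all genes 5.01% had tumour groups that did not overlap. The log2 fold change was 3.18 ± 0.76 (adjusted p = 0.0243, edgeR), a call lost without floxed tumour 2 or 3, without deleted tumour 4, and without Hmgb1-deleted 2 and 5 or 3, 4 and 6 (highest adjusted p = 0.0746). Against normal liver Smad9 fell in floxed tumours by a log2 fold change of -4.06 ± 0.78 (adjusted p = 0.00195, edgeR).

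Id1, another textbook BMP target, had a different pattern from Smad9. It was 29.1 to 124 CPM (median 38.5) in floxed tumours, 22.2 to 42.9 CPM (median 25.4) in deleted tumours and 2.75, 3.85 and 8.38 CPM in normal liver. Id1 was above every normal liver in every tumour, with log2 fold changes of 3.43 ± 0.60 in floxed tumours (adjusted p = 0.00115) and 2.52 ± 0.38 in deleted tumours (adjusted p = 0.00247, both edgeR). In floxed tumours Id1 rose while Hamp, Smad9 and Smad6 fell, the last by a log2 fold change of -0.57 ± 0.19 (adjusted p = 0.0314, edgeR). The call for Smad6, an inhibitory SMAD, was lost without floxed tumour 4 or without any 1 of the normal livers.

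**Figure D4:**
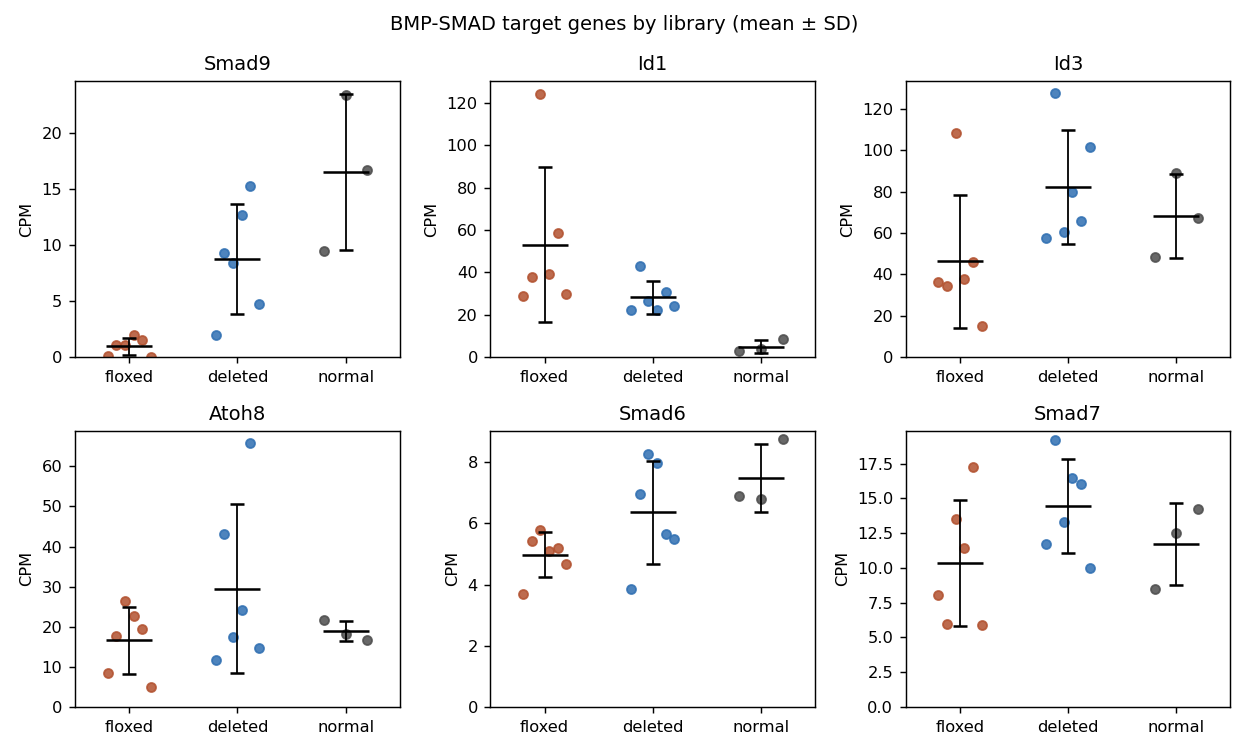
Levels in CPM of 6 genes that answer BMP-SMAD signalling, one point per library with the group mean and SD (n = 6, 6 and 3). Smad9 is lowest in floxed tumours (at most 1.96 CPM), whereas Id1 is lowest in normal liver (at most 8.38 CPM).

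Of 18 genes of the IL-6 and STAT3 route and the acute phase, 17 were tested and none was called between the tumour groups (median 0.10). The smallest p-values belonged to Lcn2, the siderophore-binding lipocalin 2, and Crp, C-reactive protein. Lcn2 was 281 to 1630 CPM in floxed tumours, 43.5 to 543 CPM in deleted tumours and 2.87 to 4.29 CPM in normal liver. Its log2 fold change was 8.22 ± 0.69 in floxed and 6.16 ± 0.96 in deleted tumours against normal liver (adjusted p = 1.5e-05 and 0.00264), and -2.07 ± 0.59 between the tumour groups (adjusted p = 0.0511, edgeR). Crp fell in floxed tumours (-1.86 ± 0.18, adjusted p = 3.2e-05, edgeR), and differed by 0.84 ± 0.24 between the tumour groups (adjusted p = 0.0519). In all, 2 of the 17 rose and 7 fell in floxed tumours against normal liver, and 2 rose and 5 fell in deleted tumours. Of all genes, 48.7% and 34.7% were called in these comparisons. Il6st and Il6ra, which encode the chains of the IL-6 receptor, and Stat3 fell in both tumour groups against normal liver. In floxed tumours their log2 fold changes were -0.91 ± 0.17, -1.20 ± 0.39 and -0.60 ± 0.16 (adjusted p = 0.00142, 0.026 and 0.0117), and in deleted tumours -0.90 ± 0.19, -1.10 ± 0.31 and -0.71 ± 0.16 (adjusted p = 0.00766, 0.0227 and 0.0105, edgeR). The calls for Il6ra and Stat3 were lost in both without normal liver 1, and none of the 3 was called between the tumour groups.

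Of 16 further genes of iron uptake, export and regulation 14 were tested, and Aco1 was called between the tumour groups. Aco1 encodes IRP1, an iron regulatory protein that binds iron-responsive elements such as those printed above. It was 126 ± 23.0 CPM in floxed tumours, 208 ± 42.1 in deleted tumours (SD, n = 6 each) and 356 ± 16.5 in normal liver (n = 3), and the 3 groups did not overlap. Between the tumour groups Aco1 rose by a log2 fold change of 0.74 ± 0.17 (adjusted p = 0.0215, edgeR), a call lost without deleted tumour 4 or without Hmgb1-deleted 3, 4 and 6 (highest adjusted p = 0.161). Ireb2, the gene of the other iron regulatory protein, fell from 153 ± 33.7 CPM in normal liver to 59.9 ± 4.54 in floxed and 73.9 ± 15.0 in deleted tumours. Its log2 fold changes were -1.34 ± 0.14 and -1.03 ± 0.19 (adjusted p = 5.7e-05 and 0.00504, edgeR). Transcripts of both iron regulatory proteins were therefore lower in both tumour groups than in normal liver. Their protein levels and RNA binding were not measured, and their part in the Tfrc level was not tested.

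Trf, the gene of transferrin itself, rose in floxed tumours. It averaged 57100 ± 16700 CPM there, 27400 ± 9800 in deleted tumours and 17100 ± 576 in normal liver. The log2 fold change was 1.75 ± 0.32 for floxed tumours against normal liver (adjusted p = 0.0015) and -1.05 ± 0.32 between the tumour groups (adjusted p = 0.06, both edgeR). Over the 14 genes tested, 2 rose and 5 fell in floxed tumours (median -0.40), and 5 fell in deleted tumours (median -0.12), against normal liver. The shares of all genes called were 48.7% and 34.7%.

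Haem genes showed 2 called differences between the tumour groups of 21 tested, against 7.78% of all genes. They were Alas1 and Cpox, both higher in deleted tumours. Alas1, the rate-limiting enzyme of haem synthesis in liver, was 63.6 to 237 CPM (median 129) in floxed tumours, 243 to 1020 CPM (median 532) in deleted tumours, and 87.2, 501 and 193 CPM in normal liver. Its tumour groups did not overlap, and Hmgb1-deleted 3, 4 and 6 were the highest. The log2 fold change was 2.10 ± 0.46 (adjusted p = 0.0181, edgeR). Cpox, coproporphyrinogen oxidase, rose by 1.07 ± 0.21 (adjusted p = 0.00997, edgeR), and both calls were lost without Hmgb1-deleted 3, 4 and 6 (adjusted p = 0.166 and 0.0759). Cpox was lower than normal liver in both tumour groups, by log2 fold changes of -2.62 ± 0.20 and -1.56 ± 0.23. Slc48a1, a haem transporter, was higher in both, by 2.19 ± 0.27 and 1.54 ± 0.26. Of the 21 genes 5 rose and 10 fell in floxed tumours against normal liver, and 3 rose and 6 fell in deleted tumours. None of 10 genes of iron-sulfur cluster assembly was called between the tumour groups. Of the 10, 1 rose and 4 fell in floxed tumours and 2 fell in deleted tumours against normal liver. For both lists the shares of all genes called were 48.7% in floxed and 34.7% in deleted tumours.

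Of 10 erythroid markers, the 4 globin genes were listed at 0 in every library, so blood content could not be read from them. Alas2, the erythroid enzyme of haem synthesis, was lower than normal liver in both tumour groups (-2.82 ± 0.44 and -2.31 ± 0.30, adjusted p = 0.00055 and 0.00139, edgeR). The erythroid list summed to 9.29 to 50.2 CPM in floxed tumours, 18.4 to 45.5 in deleted tumours and 147 to 162 in normal liver. Its part in the haem genes was not tested.

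Pairs of genes were correlated within each tumour group over its 6 libraries, on log2(CPM + 1), and none of 12 relations passed after Benjamini-Hochberg adjustment. The closest was Fth1 with Ftl1 in deleted tumours (Pearson r = 0.961, exact permutation p = 0.00972, adjusted 0.117; Spearman rho = 0.829, exact p = 0.0583, adjusted 0.233), with r = 0.887 without the 2 libraries farthest from the median. In floxed tumours the same pair gave r = 0.657 (exact permutation p = 0.167, adjusted 0.394; rho = 0.6) and 0.296 without 2 libraries. Hamp with Hamp2 gave r = 0.622 in floxed tumours (exact permutation p = 0.169, adjusted 0.394) with rho = 0.943 (exact p = 0.0167, adjusted 0.2). In deleted tumours it gave r = 0.715 (exact permutation p = 0.1, adjusted 0.394; rho = 0.829), and r = 0.203 without 2 libraries. Hamp with Smad7, an inhibitory SMAD, gave 0.491 and 0.739 in floxed and deleted tumours (exact permutation p = 0.321 and 0.0833), Hamp with Id1 0.612 and 0.451 (exact p = 0.197 and 0.365), and Hamp with Bmp6 0.402 and 0.29 (exact p = 0.45 and 0.628). Tfrc with Slc40a1 gave 0.229 and -0.0135 (exact permutation p = 0.693 and 0.974).

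The 5 genes whose pattern was most like that of Hamp, by Pearson r of log2(CPM + 1) over all 15 libraries among 14134 genes, were Trub1 (0.928), Cyp2j9 (0.926), Ccdc101 (0.918), Snhg11 (0.907) and Pigr (0.905). These values describe libraries that share group, depth and composition, and no test was made. Within floxed tumours r was 0.848 to 0.935 and within deleted tumours 0.784 to 0.986 for these genes. Trub1, a pseudouridine synthase gene, had mean levels of 15.3, 23.9 and 26.6 CPM in floxed tumours, deleted tumours and normal liver. Pigr, the polymeric immunoglobulin receptor, had 250.9, 1154 and 1679 CPM, and was thus highest in normal liver, whereas mean Hamp was highest in deleted tumours.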

How the data were processed

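The deposited table holds raw counts of reads per gene for 15 libraries. Per the submitters' processing notes, the tools were bcl2fastq 1.8.4, Bowtie2 2.2.4, TopHat2 2.1.0 and HTSeq 0.6.1 with the build mm9; per the labels' protocols, poly-A RNA was prepared with a TruSeq kit. The strand setting and the handling of reads matching several genes are unknown here, and poly-A selection and gene annotation affect which transcripts were counted. The authors deposited counts as they were; all scaling and tests here started from them.

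Counts were filtered with filterByExpr, scaled with TMM factors (0.808 to 1.34) and tested with edgeR 4.0.16 in R 4.3.3 (robust quasi-likelihood F test, group only, separate fit for each of 3 comparisons, Benjamini-Hochberg over all genes tested). CPM used TMM factors over all 15 libraries, and log2 values a pseudocount of 1. Group and pair values used exact two-sided permutation tests. The 10 genes, the 12 other lists (142 entries), the rule and the tests were chosen with earlier results of these data known, so no pattern among them is independent support. Named beside the members were, per list and comparison, up to 4 called genes with the smallest p (at most 2 where none was called), and the 5 genes most like Hamp. A withheld item is not reported here. Older symbols were matched through RefSeq synonyms for 2 entries. The fit was tested on simulated data with 200 changed genes. No libraries were repeats of each other (lowest chi-square per degree of freedom 27.9). Alternatives were other factors, filters, DESeq2 1.42.0, limma 3.58.1 voom, 1 joint fit, a replicate block and leaving out libraries; leaving out Hmgb1-deleted 2 and 5, or 3, 4 and 6, was added after seeing the data. Same-numbered tumours correlated at -0.261 to 0.225 in their deviations, so the numbers were not treated as pairs. Gene coordinates were not used, because the reference build differs from mm9; promoter windows carry their own build.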

Additional observations from a re-analysis of the deposited data

Results flagged for a closer look

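Hamp2 in floxed tumour 3, at 15.3 CPM, stood far from the other 5 floxed tumours, which lay between 0.04 and 0.728 CPM; the gap was 0.955 of the group's range. Hamp in the same library was 145 CPM, the highest of its group.

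Hmgb1 in Hmgb1-deleted tumour 1, at 9.71 CPM, stood below the other 5 deleted tumours (14.8 to 17.2 CPM), with a gap of 0.683 of the range. The same library had the lowest Hamp level of its group, 67.7 CPM. Chance alone flags about 1 in 20 groups, and 22 groups were tested.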

How the results depend on the processing

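The count of members called between the tumour groups (2) ran from 0 to 2 when 1 library was left out; it was 0 without floxed tumour 2 or 5 or deleted tumour 2, 3 or 4, and 1 without floxed tumour 1 or 6 or deleted tumour 5 or 6. It was 0 without Hmgb1-deleted 2 and 5 and 1 without 3, 4 and 6. Floxed tumours against normal liver (6) gave 3 to 6, the lowest without normal liver 2. Deleted tumours against normal liver (3) gave 0 to 4 (0 without normal liver 2 or 3, 1 without normal liver 1 or deleted tumour 6), 5 on library totals, 5 with voom, 1 without Hmgb1-deleted 2 and 5 and 5 without 3, 4 and 6.

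Summed hepcidin between the tumour groups kept its sign, at 2.73 to 3.87 without 1 library, 2.89 without Hmgb1-deleted 2 and 5 and 3.03 without 3, 4 and 6. Deleted tumours against normal liver ran from -0.077 without deleted tumour 4 (and -0.01 without normal liver 1) to 0.75 without deleted tumour 1, and were -0.22 without Hmgb1-deleted 2 and 5 and -0.088 without 3, 4 and 6. Correlations of Hamp turned without the 2 farthest libraries for Smad7 (-0.25) and Bmp6 (-0.086) in floxed tumours and Id1 (-0.205) in deleted tumours.

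Other turned signs were all in differences not called. Between the tumour groups these were Hfe2 without floxed tumour 5 or 6 or deleted tumour 4 (range without 1 library -0.099 to 0.27), Bmp6 without Hmgb1-deleted 2 and 5 (-0.030), Tfr2 without 3, 4 and 6 (-0.41), and Fth1 on library totals (0.046) and without floxed tumour 2 (0.027; range from -0.24). For floxed tumours against normal liver Hfe2 was 0.090 with upper-quartile factors, 0.015 with voom, and -0.30 to 0.068 without 1 library, turning without floxed tumour 5 or normal liver 3. For deleted tumours against normal liver Hfe2 was 0.12 with upper-quartile factors, 0.25 on library totals, 0.029 with voom, and -0.11 to 0.087 without 1 library, turning without deleted tumour 2 or 6 or normal liver 3. The causes were not tested.

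With a replicate block the counts of members called were 2, 6 and 2. Between the tumour groups Hamp2 was then called (3.17, adjusted p = 0.0496, edgeR) and Tfrc was not (-0.63, adjusted p = 0.0683); against normal liver, Hfe in deleted tumours was not called (-0.44, adjusted p = 0.0628), Hfe2 in floxed tumours was 0.27 and Hamp in deleted tumours -0.20. Only 2 of 6 tumours correlated best with their own number, and the labels name no pairing. A weak pairing could be missed by this check and is not excluded.

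On library totals the median of all genes shifted to 0.20, 0.15 and 0.33 in the 3 comparisons. Calls between the tumour groups split into 982 higher and 257 lower on that scale, against 598 and 447 with TMM. Differences for Tfrc, Hfe and Ftl1 near that shift depend on the scaling. Low counts limited Hamp2 and Smad9 in floxed tumours, where 3 counts equal 0.111 to 0.168 CPM. Counting could divide Hamp and Hamp2 reads in either direction, and 3 normal livers set a wide error on both comparisons with them.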
